A study of Homo sapiens with 4 samples.

Results

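The proteasome genes were examined in ribosome footprints of PANC-1 cells, an established line of human pancreatic ductal adenocarcinoma. Members were the protein-coding genes whose symbol begins with PSM, a letter from A to G and a number. These were 50 of the 20307 genes listed, and 48 of them encode proteasome subunits, activators, an inhibitor or assembly factors. The other 2, PSMC3IP and PSME3IP1, match the naming rule but are no proteasome subunits and are given apart. The cells were negative controls or had FBXO32 depleted, with 2 libraries per group named as bioreplicates. FBXO32 is the substrate-binding F-box protein of an SCF ubiquitin ligase, and the stated purpose was to look for genes that it regulates in translation. The labels name no treatment that sets the groups apart other than the depletion, do not say how it was done or whether clones were used, and give all cells the same growth and cycloheximide steps. Cycloheximide stops ribosomes on the mRNA before nuclease digestion, so the sequenced fragments are those that ribosomes cover. Each gene has 1 TPM value per library, a share of the library's reads scaled by gene length. The length definition and the counted region are not stated, so differences in level between genes also depend on these. Footprints count mRNA and its translation together, so these cannot be told apart, and TPM carries no read depth, so no counting interval can be given.

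The 26S proteasome degrades proteins that carry ubiquitin. Its 20S core is a barrel of alpha rings, which gate the entry, around beta rings, which hold the proteolytic sites. The 19S regulatory particle caps the core. Its base holds a ring of AAA ATPases that unfold substrates and its lid removes the ubiquitin chain. Interferons induce replacement catalytic subunits, which form the immunoproteasome, and the PA28 activator, and both favour peptides for MHC class I. Assembly chaperones build the rings and then leave, and most subunits are held in the finished particle in equal number.

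In the whole table, 11623 genes had 1 TPM or more in 2 or more libraries. They entered a limma fit of log2(TPM + 1), with p-values adjusted over all of them by Benjamini and Hochberg. FBXO32 itself measured 18.1 and 21.6 TPM in control cells, against 14.3 and 12.9 TPM after depletion, and did not pass (limma adjusted p = 0.429), so the depletion rests on the labels. KRT8, KRT18, KRT19, KRT7 and EPCAM, markers of an epithelial carcinoma line, were listed above 0 in every library and summed to between 502 and 1778 TPM, lowest in depleted replicate 2. KRT8 and KRT18, which carry that sum, fell (limma adjusted p = 0.00574 and 0.0402), while EPCAM and KRT7 had both depleted libraries above both controls and did not pass. VIM, a mesenchymal gene that PANC-1 cells are known to express, ranged from 477 TPM in depleted replicate 2 to 1837 TPM and fell (log2 fold change -1.14, limma adjusted p = 0.00844). The blood, endothelial, acinar and islet markers summed to under 1 TPM per list in every library, and PTPRC, CDH5, PRSS1 and INS were at 0. Of 4 fibroblast markers, COL1A1 fell and COL3A1 rose (log2 fold change -1.37 and 1.22, limma adjusted p = 0.00578 and 0.028), both above 10 TPM in every library, while PDGFRB and DCN stayed under 1 TPM. Median log2 fold change over all genes tested was -0.16, and it became 0.02 under median-ratio scaling of the libraries.

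Of the 48 proteasome genes, 46 were tested and each of these exceeded 1 TPM in every library. The testis alpha subunit PSMA8 and the thymus catalytic subunit PSMB11 were listed at 0 in all 4 libraries. Footprints of 5 genes fell in the depleted libraries, 0 rose and 41 did not pass. This is 5 of 46 lower, against 19.5% of all genes tested, and 0 higher, against 6.21%. At an unadjusted p under 0.05 the counts were 9 lower and 2 higher, the latter PSMB9 and PSMG4, against 25.4% and 11.8% of all genes tested. All 5 belong to the 19S regulatory particle. The 50 matched genes together took 0.922% and 1.01% of all TPM in the controls and 0.987% and 0.562% after depletion.

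These counts rest on single libraries. Without control replicate 1, 0 proteasome genes fell and 0 rose, against 2.99% and 0.318% of all genes tested. Without depleted replicate 1, 10 fell and 1, PSMG4, rose, against 20.6% and 5.56%. Under median-ratio scaling 1 gene, PSMC3, fell and 2, PSMB9 and PSMG4, rose, against 16.3% and 10.7%. With the trend of fold change with coding length removed, PSMC3 and PSMC4 fell and PSME4 rose, against 12.7% and 7.79%. At an adjusted p under 0.1 there were 9 lower and 2 higher proteasome genes, against 23.4% and 9.83%, and under 0.01 there were 1 and 0, against 13.4% and 2.24%. In either direction 25.7% of all genes tested passed at 0.05.

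**Figure D1:**
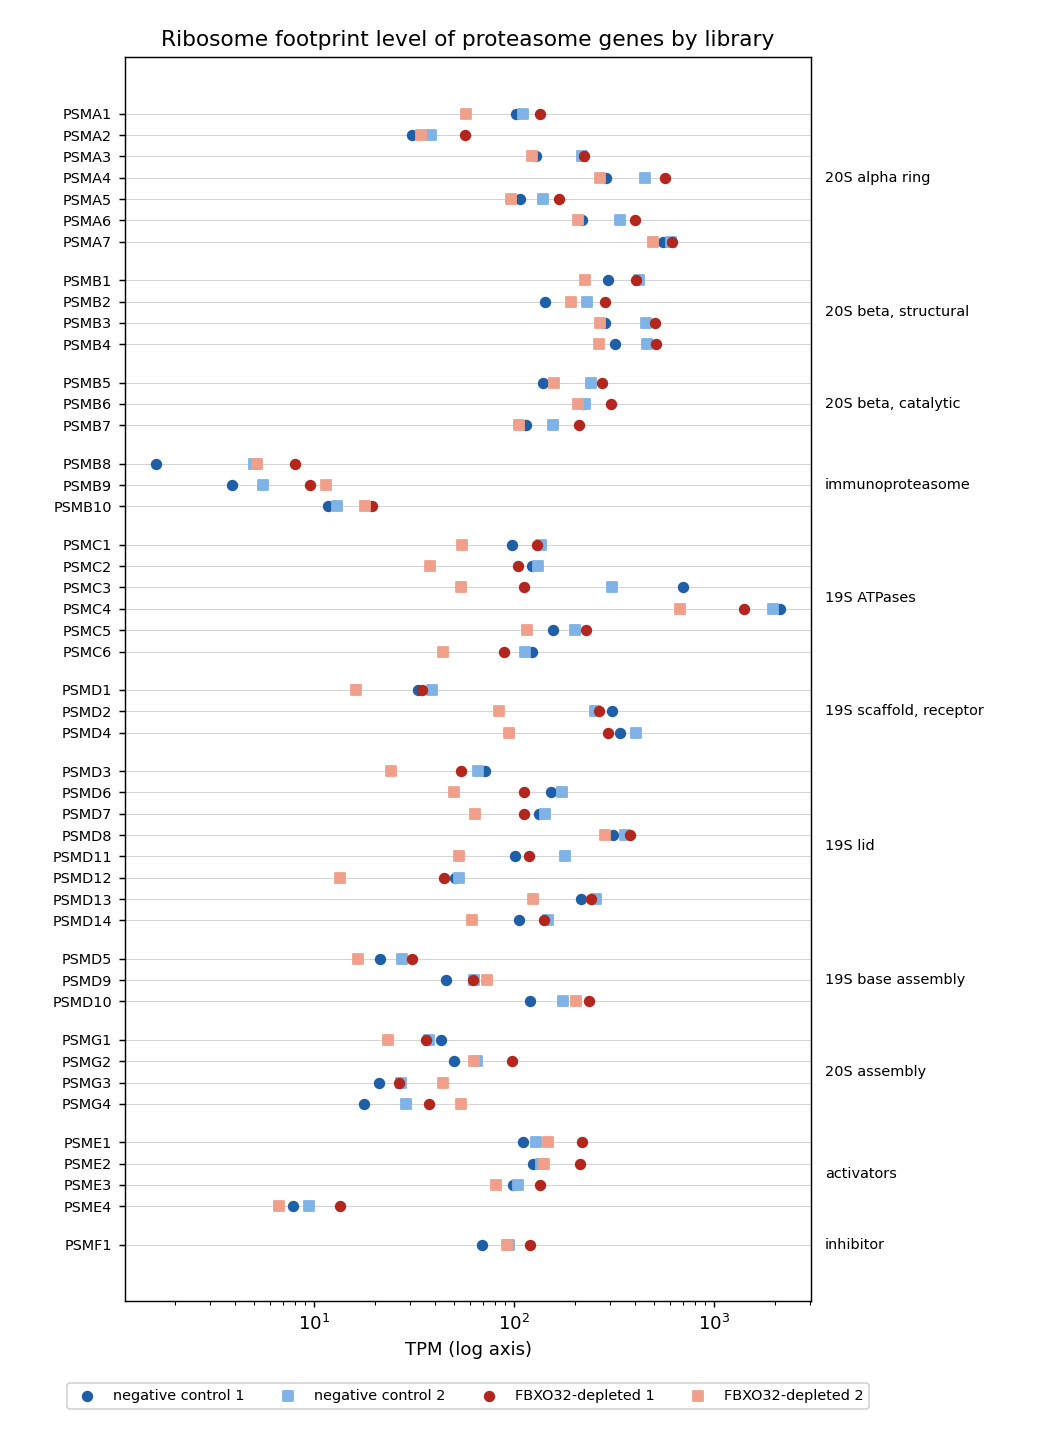
TPM of each of the 46 tested proteasome genes (log axis) in the 4 libraries, grouped by subcomplex, with controls in blue and depleted libraries in red. FBXO32-depleted replicate 2 is the lowest library for all 17 matched genes of the 19S regulatory particle. It is also the lowest for 11 of 14 genes of the 20S core and for 4858 of 11623 genes tested. The 3 immunoproteasome genes have both depleted libraries above both controls, against 26.8% of all genes tested.

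No subunit of the 20S core passed the test. All 14 standard core subunits were tested and 0 passed in either direction, against 25.7% of all genes tested. At an unadjusted p under 0.05 there were also 0, against 25.4% lower and 11.8% higher among all genes tested. The depleted and control values overlapped for all 14, against 4134 of 11623 genes tested. The median log2 fold change was 0.07, with 9 members above and 5 below 0, between -0.26 for PSMA1 and 0.37 for PSMB2. Counts of higher and lower members turned with the setting, to 12 above 0 under median-ratio scaling and 4 above 0 with the trend of fold change with coding length removed. The median also turned with the depleted library kept, to 0.47 without depleted replicate 2 and -0.37 without depleted replicate 1. The 95% confidence intervals of the 14 genes ran from as low as -1.04 (PSMA1) to as high as 1.18 (PSMA2), so changes of up to about that size are not shown to be absent.

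The catalytic subunits show how the core values lay. PSMB5, the chymotrypsin-like catalytic subunit, measured 139.6 and 242 TPM in control cells, against 275 and 158 TPM after depletion. PSMB6, the caspase-like subunit, measured 221 and 226 TPM in control cells, against 306 and 208 TPM after depletion. PSMB7, the trypsin-like subunit, measured 114 and 156 TPM in control cells, against 209.8 and 105 TPM after depletion. For all 3, depleted replicate 1 was the highest library and depleted replicate 2 lay within or below the controls. The log2 fold changes were 0.18 ± 0.38 (SE), 0.18 ± 0.38 and 0.15 ± 0.39, with limma adjusted p-values of 0.777, 0.778 and 0.811. The same order of libraries held through the core: depleted replicate 1 was the highest for 13 of 14 subunits and exceeded depleted replicate 2 for all 14, by a median of 0.86 on the log2 scale. Control replicate 2 exceeded control replicate 1 for all 14, by a median of 0.52. Over all genes tested these medians were 0.18 and -0.01. Of those 11623 genes, depleted replicate 1 was the highest library for 2823 and exceeded depleted replicate 2 for 7104. Control replicate 2 exceeded control replicate 1 for 5723 of them.

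TPM within the core was uneven although its subunits are held in equal number, and the length used in the scaling is not stated. In the alpha ring, PSMA7 had the highest mean control level, with 556 and 609 TPM in control cells, against 613 and 494 TPM after depletion. PSMA2 had the lowest, with 30.8 and 38.4 TPM in control cells, against 56.8 and 34.3 TPM after depletion. The highest alpha subunit exceeded the lowest by 18.0-fold and 15.8-fold in the controls and by 10.8-fold and 14.4-fold in the depleted libraries. PSMA2 has 3 annotated pseudogenes and shares its strand with an overlapping protein-coding gene, so its value is uncertain. The same limit applies to PSMA6, with 4 pseudogenes and such an overlap, and to PSMA1, which has the overlap. The 7 standard beta subunits were closer together, with a ratio of highest to lowest between 2.42 and 2.95 over the 4 libraries. Among its structural members, PSMB4 had the highest mean control level, with 320.5 and 460.1 TPM in control cells, against 508 and 265 TPM after depletion, and PSMB2 the lowest, with 142 and 231 TPM in control cells, against 285 and 192 TPM after depletion.

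The 19S regulatory particle held every call. Of its 17 tested subunits, 5 fell, 0 rose and 12 did not pass, which is 5 of 17 against the 19.5% of all genes tested that fell. The 17 are those that match the naming rule, which leaves out the 19S subunits ADRM1 and SEM1. Neither of these passed, with log2 fold changes of -0.88 and 0.22, and SEM1 was highest in depleted replicate 2. All 17 matched subunits had a log2 fold change below 0, with a median of -0.90 against -0.16 for all genes tested. PSMC5 and PSMD8 turned above 0 under median-ratio scaling and also without control replicate 2. With the trend of fold change with coding length removed, PSMC5, PSMD1 and PSMD8 lay above 0. Both depleted libraries lay below both controls for 9 of the 17, against 37.6% of all genes tested. Depleted replicate 2 was the lowest library for all 17, and also for 11 of 14 core subunits and 4858 of 11623 genes tested. Without that library the median log2 fold change of the 17 was -0.22, and 5 of them lay above 0. Without depleted replicate 1 the median was -1.39. KRT8, KRT18 and VIM were also lowest in depleted replicate 2, and their part in the 19S values was not tested.

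Among the 6 ATPases of the base, 3 fell, against 19.5% of all genes tested. PSMC3 (RPT5, GRCh38 chromosome 11, 47418769 to 47426473, minus strand) measured 697 and 309 TPM in control cells, against 112 and 53.9 TPM after depletion. The groups did not overlap, and the controls differed from each other by more than the depleted libraries did. PSMC3 went from a mean of 503 ± 275 to 82.8 ± 40.8 TPM (SD, n = 2). This was 5.91-fold lower on the log2(TPM + 1) scale, a log2 fold change of -2.56 ± 0.38 (SE, limma adjusted p = 2.16e-09). Its call ended without control replicate 1, the library with its highest value (log2 fold change -1.98, limma adjusted p = 0.0566). In the controls PSMC3 stood above the median of PSMC1, PSMC2, PSMC5 and PSMC6 by 5.68-fold and 2.31-fold, and after depletion its ratio to them was 0.959 and 1.09.

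PSMC4 (RPT3, chromosome 19, 39971005 to 39981441, plus strand) had the highest footprint level in every library among the proteasome genes that match the naming rule. It measured 2129 and 1955 TPM in control cells, against 1407 and 674 TPM after depletion. No depleted value reached a control value, and the log2 fold change was -1.07 ± 0.35 (limma adjusted p = 0.0144). PSMC4 exceeded the median of the other 5 ATPases by 17.3-fold and 14.4-fold in the controls and by 12.6-fold and 12.5-fold after depletion, so it stood apart in both groups. PSMC4 was not called under median-ratio scaling (limma adjusted p = 0.103) or without either control library, and its log2 fold change came to -0.54 without depleted replicate 2 (limma adjusted p = 0.475). The annotation lists no overlapping gene or pseudogene for PSMC3 or PSMC4, while PSMC2 and PSMD6 have genes on the opposite strand and PSMD4 has 1 pseudogene. PSMC2 also overlaps the processed pseudogene RPS29P16 on its own strand, by 171 nt.

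PSMC2 (RPT1, chromosome 7, 103344254 to 103369395, plus strand) measured 123 and 131 TPM in control cells, against 104 and 38.1 TPM after depletion. Its log2 fold change was -0.998 ± 0.40 and lay just inside the threshold (limma adjusted p = 0.0489), which it missed in most alternatives tried. Without depleted replicate 2 it was -0.29 (limma adjusted p = 0.74). The ATPases that did not pass were PSMC6 (-0.90 ± 0.40), PSMC1 (-0.45 ± 0.40) and PSMC5 (-0.13 ± 0.39). PSMC5 measured 157 and 201 TPM in control cells, against 227 and 115 TPM after depletion, with groups that overlapped. PSMC1 had the lowest mean control level of the ring, 97.0 and 136 TPM, with 129 and 54.7 TPM after depletion, and 13 annotated pseudogenes could share its reads.

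Of the 3 base scaffold and ubiquitin receptor genes that match the naming rule, PSMD4 fell, against 19.5% of all genes tested. PSMD4 (RPN10, which binds ubiquitin chains; chromosome 1, 151254703 to 151267479, plus strand) measured 339 and 404 TPM in control cells, against 294 and 94.5 TPM after depletion. The groups did not overlap, but depleted replicate 1 lay close to the lower control. The log2 fold change was -1.14 ± 0.38 (limma adjusted p = 0.015). PSMD4 was no longer called without depleted replicate 2 (-0.33, limma adjusted p = 0.693), without either control (adjusted p = 0.266 and 0.254) and under median-ratio scaling (adjusted p = 0.0712). PSMD2 (RPN1), a scaffold that docks ubiquitin receptors, measured 309 and 252 TPM in control cells, against 264 and 83.8 TPM after depletion, a log2 fold change of -0.90 ± 0.38 that did not pass (limma adjusted p = 0.0644). PSMD1 (RPN2), the other scaffold, was lowest in level, with 33.2 and 38.6 TPM in control cells, against 34.4 and 16.2 TPM after depletion.

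Of the 8 lid subunits that match the naming rule, 1 fell, against 19.5% of all genes tested. PSMD6 (RPN7, chromosome 3, 64010549 to 64024010, minus strand) measured 153 and 174 TPM in control cells, against 112 and 50.015 TPM after depletion, with no overlap (log2 fold change -1.11 ± 0.39, limma adjusted p = 0.0243). Without depleted replicate 2 the PSMD6 value was -0.54 (limma adjusted p = 0.492), and its call also ended without either control (adjusted p = 0.259 and 0.218) and under median-ratio scaling (adjusted p = 0.0832). PSMD12 (RPN5) lay just outside the threshold, with 50.8 and 53.0 TPM in the controls, 44.3 and 13.4 TPM after depletion (log2 fold change -1.05 ± 0.43, limma adjusted p = 0.0532). PSMD14 (RPN11), the metalloprotease that cuts the ubiquitin chain from the substrate, measured 106 and 147 TPM in control cells, against 141 and 61.5 TPM after depletion, and its groups overlapped (-0.42 ± 0.40). PSMD8 (RPN12) had the highest lid level in the controls, with 312 and 357 TPM there and 378 and 283 TPM after depletion, a log2 fold change of -0.03 ± 0.38. The remaining lid genes PSMD3, PSMD7, PSMD11 and PSMD13 had log2 fold changes between -0.90 and -0.44, and none passed.

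**Figure D2:**
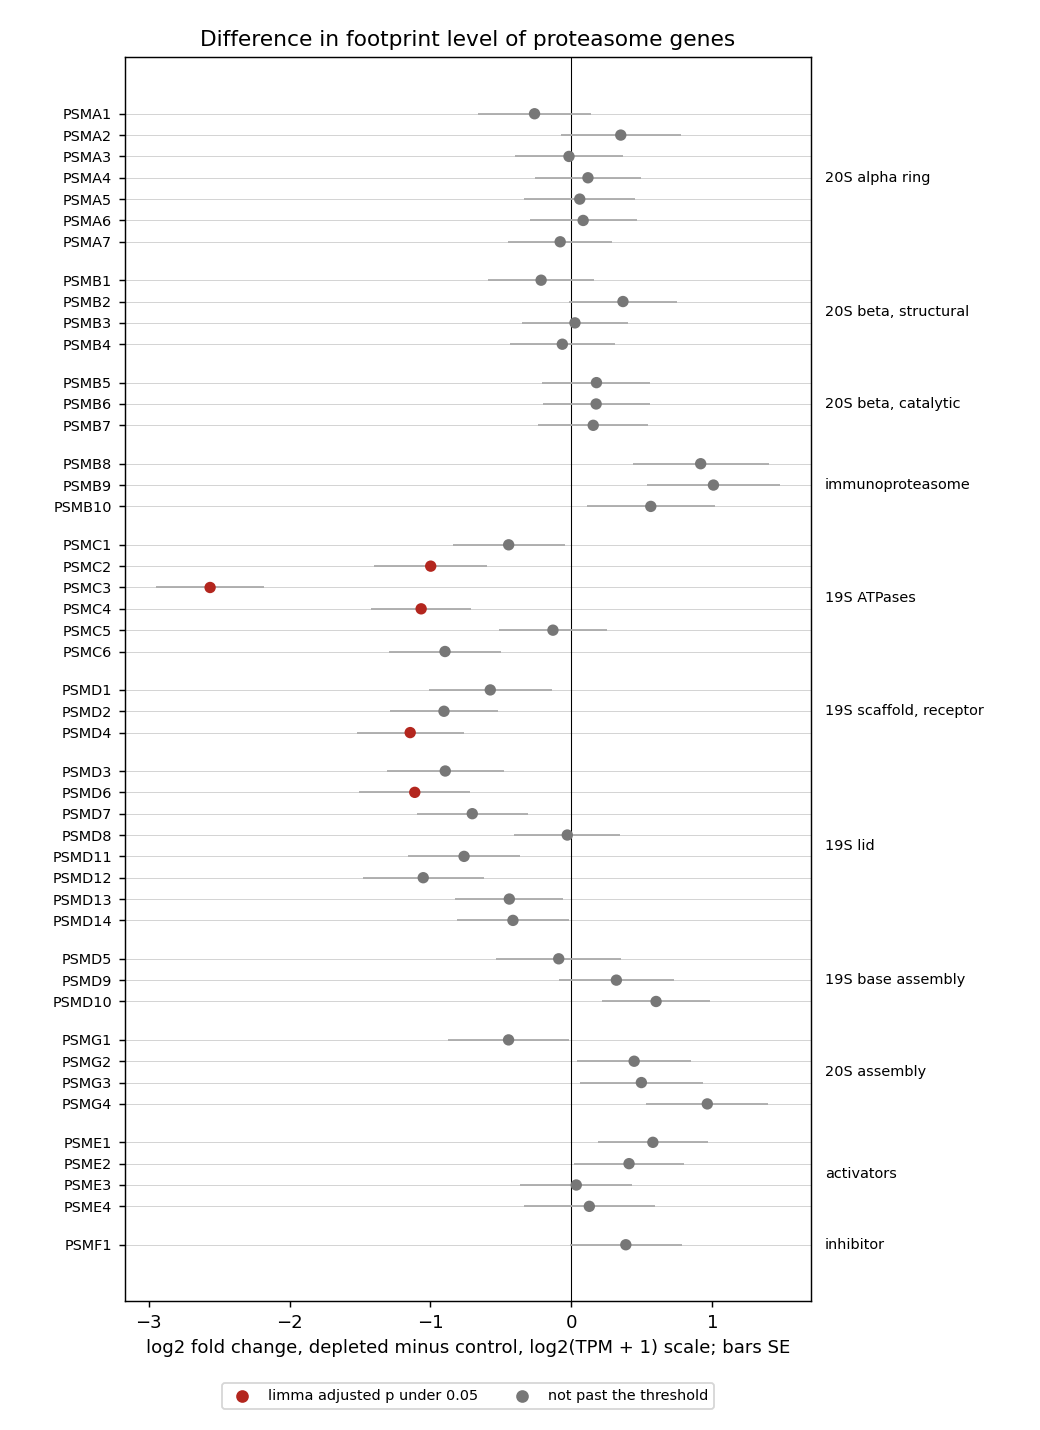
Log2 fold change of each tested proteasome gene (depleted minus control on the log2(TPM + 1) scale, bars SE, n = 2 libraries per group), with calls in red. The 17 matched genes of the 19S regulatory particle all lie below 0 and hold the 5 calls. The 14 genes of the 20S core lie between -0.26 and 0.37.

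The balance of the particles was read within each library, where depth and scaling cancel. The 19S subunits here are those that match the naming rule, without SEM1 and ADRM1. Their median TPM divided by that of the 20S core was 0.735 and 0.734 in control cells, against 0.400 and 0.274 after depletion. For the ATPases alone the ratio to the core was 0.777 and 0.711 in the controls and 0.408 and 0.272 after depletion, and for the lid alone 0.662 and 0.676 in the controls and 0.390 and 0.287 after depletion. All 3 ratios separated the groups, while the ratio of the alpha to the beta ring did not, with 0.580 and 0.899 in the controls and 0.728 and 0.588 after depletion. Without PSMC3 and PSMC4 the ratio of 19S to 20S was 0.684 and 0.619 in the controls and 0.400 and 0.274 after depletion. As a difference of medians of log2(TPM + 1), the core lay above the 19S subunits by 0.41 and 0.44 in the controls and by 1.31 and 1.85 after depletion. The groups differed by 1.15, against a pooled SD between libraries of a group of 0.27. With 2 libraries per group no exact permutation test over libraries can pass the threshold, since the smallest two-sided p is 0.333, and the values are given without a p.

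**Figure D3:**
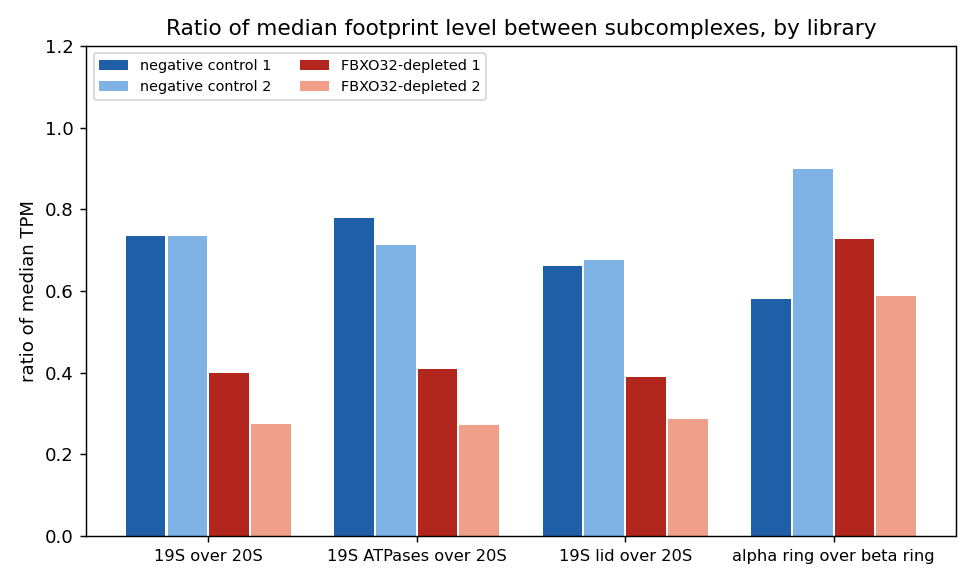
Ratio of the median TPM of one subcomplex to that of another (bars from 0) in each of the 4 libraries. The ratios of the 19S particle, its ATPases and its lid to the 20S core are between 0.662 and 0.777 in the controls and between 0.272 and 0.408 in the depleted libraries, and the ratio of alpha to beta ring overlaps between the groups.

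Coding length moves with this contrast. The 20S subunits have coding lengths of 603 to 831 nt. The 17 19S subunits that match the naming rule have 930 to 2859 nt, with no overlap. SEM1, a lid subunit outside the rule, has 384 nt and a log2 fold change of 0.22 ± 0.36 (SE), and is not part of this contrast. Over all 11525 genes tested that have a coding length, Spearman's rho between coding length and log2 fold change was -0.46, given as a description over genes that share the same libraries. It was -0.81 across the 31 core and 19S subunits and -0.38 within the 17 subunits of the 19S particle. With the trend of all genes removed, the difference between 20S and 19S was 0.80 in place of 1.15, with a pooled SD of 0.13, and the groups still did not overlap. The median of the 19S subunits was then -0.58, PSMC3 (-2.36, limma adjusted p = 0.000563) and PSMC4 (-0.90, limma adjusted p = 0.0173) were still called, and PSMD4, PSMD6 and PSMC2 were not (limma adjusted p = 0.053, 0.0575 and 0.114). The scaffolds PSMD1 and PSMD2, the longest of the 19S genes with 2859 and 2724 nt, lay close to the trend, at 0.15 and -0.21 after its removal.

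**Figure D4:**
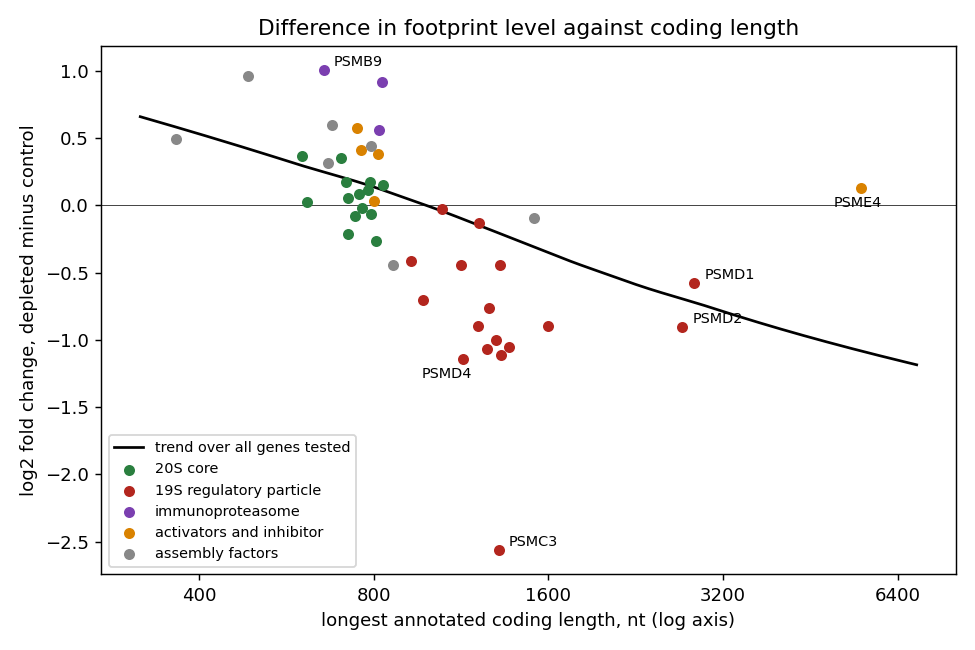
Log2 fold change of the tested proteasome genes (depleted minus control) against the longest annotated coding length (log axis), coloured by subcomplex, with the trend over all genes tested as a line. The 20S genes cluster near the line at 603 to 831 nt, most 19S genes lie below it, and PSME4, at 5529 nt, lies above it.

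The immunoproteasome was expressed at a low level. Its 3 genes had both depleted libraries above both controls, against 26.8% of all genes tested, and none passed the test. PSMB8, which replaces PSMB5, measured 1.62 and 4.98 TPM in control cells, against 8.003 and 5.20 TPM after depletion (log2 fold change 0.92 ± 0.48, limma adjusted p = 0.149). PSMB9, which replaces PSMB6, measured 3.90 and 5.57 TPM in control cells, against 9.49 and 11.4 TPM after depletion (log2 fold change 1.01 ± 0.47, limma adjusted p = 0.0993). PSMB10, which replaces PSMB7, measured 11.7 and 13.0 TPM in control cells, against 19.5 and 17.9 TPM after depletion (log2 fold change 0.56 ± 0.45, limma adjusted p = 0.377). The PSMB8 values were closest, with control replicate 2 just under depleted replicate 2. PSMB9 passed under median-ratio scaling (log2 fold change 1.18, limma adjusted p = 0.0364). Relative to the subunit each replaces, PSMB8 stood at 1.16% and 2.05% of PSMB5 in the controls and 2.91% and 3.29% after depletion. PSMB9 stood at 1.77% and 2.46% of PSMB6 in the controls and 3.10% and 5.48% after depletion, and PSMB10 at 10.3% and 8.33% of PSMB7 in the controls and 9.30% and 17.0% after depletion. The first 2 ratios separated the groups and the third did not. PSMB8 and PSMB9 overlap each other on opposite strands, and PSMB9 also overlaps TAP1, so without a stated strand their reads cannot be told apart there. PSMB10 also overlaps a protein-coding gene on its own strand.

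The PA28 subunits, which interferon induces together, had similar levels and neither passed. PSME1 (PA28 alpha) measured 111 and 129 TPM in control cells, against 217 and 147 TPM after depletion (log2 fold change 0.58 ± 0.39, limma adjusted p = 0.276). PSME2 (PA28 beta), its partner in the same ring, measured 124 and 135 TPM in control cells, against 213 and 140.2 TPM after depletion (log2 fold change 0.41 ± 0.39, limma adjusted p = 0.466). Both depleted values exceeded both controls for each, narrowly for PSME2, and the ratio of PSME1 to PSME2 stayed between 0.889 and 1.05 over the 4 libraries. PSME2 has 2 annotated pseudogenes that could share its reads. In all, the depleted libraries lay above both controls for 7 of 46 tested proteasome genes, against 26.8% of all genes tested, and these 7 include all 5 immunoproteasome and PA28 genes. The nuclear activators did not show this. PSME3 (PA28 gamma) measured 98.7 and 105 TPM in control cells, against 134 and 80.7 TPM after depletion, and PSME4 (PA200) measured 7.82 and 9.45 TPM in control cells, against 13.4 and 6.65 TPM after depletion. PSME4, by far the longest member, passed upward only with the coding-length trend removed (log2 fold change 1.21, limma adjusted p = 0.0373). PSMF1 (PI31), an inhibitor of the isolated core, measured 68.8 and 93.7 TPM in control cells, against 119.7 and 92.4 TPM after depletion (log2 fold change 0.39 ± 0.40).

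The promoters of the genes whose depleted libraries lay above both controls are shown because most share 1 sequence. RefSeq windows on GRCh38.p14, from 250 bases before to 50 bases after a transcription start, were available for 42 of the 48 genes. They were searched on both strands for GAAA repeated after any 2 bases, the core that interferon regulatory factors bind, and for TGACNNNGC, the core of the antioxidant response element. The first was present in 7 of the 51 windows of these genes, or 13.7%, against 3.57% of all 35116 RefSeq windows. The 7 windows belong to 7 genes. These were PSMB8, PSMB10, PSME1, PSME2, PSMG4, PSMA4 and PSMB4. The first 5 all carry the same letters, GAAAGCGAAA, which occur in 35 of the 35116 windows, and they are 5 of the 7 genes with both depleted libraries above both controls. The other 2 of those 7, PSMB9 and PSMD10, hold no match in these windows. PSMA4 and PSMB4, with other letters at the open positions, had overlapping groups. These genes were picked after their values were seen, and a match is a description of the sequence, not of binding. The letters GAAAGCGAAA were likewise taken from these matches and only then counted over all windows. The 35 windows include those of the proteasome genes, so their rarity is no separate support. Windows run 5′ to 3′ on the strand of the gene, with the element in capitals, which reads as its reverse complement in PSMB8 and PSME1. They lie at chr6:32843998-32844297 (minus strand, 1 of 2 PSMB8 starts), chr16:67936801-67937100 (minus strand, PSMB10), chr14:24135944-24136243 (plus strand, PSME1), chr14:24146561-24146860 (minus strand, PSME2) and chr6:3258697-3258996 (plus strand, PSMG4).
PSMB8: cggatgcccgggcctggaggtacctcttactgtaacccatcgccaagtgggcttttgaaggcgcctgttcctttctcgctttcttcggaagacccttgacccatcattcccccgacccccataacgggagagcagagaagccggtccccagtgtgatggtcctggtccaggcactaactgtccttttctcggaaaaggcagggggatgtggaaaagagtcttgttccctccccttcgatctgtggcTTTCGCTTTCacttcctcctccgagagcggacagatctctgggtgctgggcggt
PSMB10: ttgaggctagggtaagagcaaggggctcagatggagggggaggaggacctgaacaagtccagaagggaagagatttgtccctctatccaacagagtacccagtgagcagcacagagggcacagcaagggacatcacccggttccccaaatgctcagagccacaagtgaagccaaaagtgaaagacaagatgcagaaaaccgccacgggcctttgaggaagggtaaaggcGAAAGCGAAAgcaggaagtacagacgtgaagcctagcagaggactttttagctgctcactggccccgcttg
PSME1: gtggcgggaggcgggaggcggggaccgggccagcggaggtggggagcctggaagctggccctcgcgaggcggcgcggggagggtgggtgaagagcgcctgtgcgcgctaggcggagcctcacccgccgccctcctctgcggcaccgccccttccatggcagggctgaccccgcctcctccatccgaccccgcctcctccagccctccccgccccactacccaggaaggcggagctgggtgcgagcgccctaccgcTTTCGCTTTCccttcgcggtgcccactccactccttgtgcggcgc
PSME2: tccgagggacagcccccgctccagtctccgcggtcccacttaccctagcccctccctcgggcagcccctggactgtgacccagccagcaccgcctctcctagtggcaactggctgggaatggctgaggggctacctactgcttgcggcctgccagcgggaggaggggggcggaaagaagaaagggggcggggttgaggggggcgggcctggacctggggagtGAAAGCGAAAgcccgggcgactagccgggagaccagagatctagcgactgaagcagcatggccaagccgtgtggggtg
PSMG4: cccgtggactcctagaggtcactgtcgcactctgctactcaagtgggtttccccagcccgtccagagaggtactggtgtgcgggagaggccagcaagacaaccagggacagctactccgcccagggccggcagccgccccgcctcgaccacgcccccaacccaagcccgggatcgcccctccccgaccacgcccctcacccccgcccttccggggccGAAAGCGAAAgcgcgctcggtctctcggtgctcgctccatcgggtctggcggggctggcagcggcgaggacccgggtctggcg
The element begins 21 bases before the start in PSMB10, 28 in PSME2 and 33 in PSMG4. It spans the start in PSMB8 and begins at base 6 of the transcript in PSME1. The antioxidant core was present in 15 of the 51 windows, or 29.4%, against 13.3% of all windows. The 15 genes were spread over the subcomplexes: 3 of 4 activator genes with a window, 2 of 3 assembly genes of the 19S base, 2 of 3 of the 20S core, 2 of 6 ATPase genes, 2 of 8 lid genes, 1 of 2 scaffold genes, 1 of 6 alpha ring genes, 1 of 3 structural beta genes and 1 of 3 immunoproteasome genes.

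Assembly factors showed no call in either direction, against 25.7% of all genes tested. PSMG4 (PAC4), 1 of 4 chaperones of the alpha ring, measured 17.7 and 28.7 TPM in control cells, against 37.3 and 54.1 TPM after depletion (log2 fold change 0.96 ± 0.43, limma adjusted p = 0.0826). It passed under median-ratio scaling (1.16, limma adjusted p = 0.0283). PSMG4 overlaps SLC22A23 and TUBB2B on the opposite strand, so its value is uncertain. PSMG2 (PAC2) had the highest mean control level of these chaperones, with 50.1 and 65.3 TPM in control cells, against 97.8 and 62.5 TPM after depletion. PSMG1 (PAC1), which pairs with PSMG2, measured 43.0 and 37.4 TPM in control cells, against 36.2 and 23.4 TPM after depletion, with log2 fold changes of -0.45 ± 0.43 for PSMG1 and 0.44 ± 0.41 for PSMG2. Among the chaperones of the ATPase ring, PSMD10 (gankyrin) measured 119 and 174 TPM in control cells, against 236 and 203 TPM after depletion, above both controls in each (log2 fold change 0.60 ± 0.38, limma adjusted p = 0.249). PSMD10 has 3 annotated pseudogenes that could share its reads. PSMD9 and PSMD5 had log2 fold changes of 0.32 ± 0.41 and -0.09 ± 0.44. PSMD5 had the lowest level of the 3, with 21.2 and 27.4 TPM in control cells, against 30.9 and 16.5 TPM after depletion.

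The 2 genes that match the naming rule but encode no subunit both fell, against 19.5% of all genes tested. PSMC3IP, a cofactor of DNA strand exchange in homologous recombination (chromosome 17, 42572315 to 42577831, minus strand), measured 68.3 and 40.5 TPM in control cells, against 13.2 and 20.7 TPM after depletion (log2 fold change -1.61 ± 0.43, limma adjusted p = 0.00188). PSME3IP1, which encodes a partner of PSME3 (chromosome 16, 57152466 to 57186116, minus strand), measured 319 and 170 TPM in control cells, against 87.3 and 77.4 TPM after depletion (log2 fold change -1.49 ± 0.39, limma adjusted p = 0.00127). Both calls ended without control replicate 1 (limma adjusted p = 0.25 and 0.265). PSMC3, PSMC3IP and PSME3IP1 had their highest value in that library, and for PSMC3 and PSME3IP1 it lay above the other control by more than 100 TPM.

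Among 28 further genes of the pathway, 1 was called lower and 0 higher, and 27 were not called, against 19.5% lower and 6.21% higher among all genes tested. Their median log2 fold change was -0.08. VCP, the AAA ATPase that extracts ubiquitinated proteins, measured 158 and 175 TPM in control cells, against 92.5 and 42.9 TPM after depletion (log2 fold change -1.38 ± 0.40, limma adjusted p = 0.00396). The VCP call did not hold once the length trend was taken out (limma adjusted p = 0.112), without control replicate 1 or 2 (limma adjusted p = 0.165 and 0.117) or without depleted replicate 2 (limma adjusted p = 0.236). ADRM1 (RPN13), a ubiquitin receptor of the 19S base outside the naming rule, measured 242 and 225 TPM in control cells, against 156 and 102 TPM after depletion and did not pass (log2 fold change -0.88 ± 0.39, limma adjusted p = 0.0734). SEM1, the smallest lid subunit, measured 771 and 723 TPM in control cells, against 672 and 1118 TPM after depletion, and its groups overlapped. NFE2L1, the transcription factor that raises proteasome genes when proteasome activity is short, measured 55.4 and 59.7 TPM in control cells, against 118 and 109.5 TPM after depletion (log2 fold change 0.97 ± 0.40, limma adjusted p = 0.0579). ADRM1, SEM1 and NFE2L1 were named after their values were seen.

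Of 14 genes of peptide loading and its regulators, 13 were tested, 3 rose, 1 fell and 9 did not pass, against 6.21% higher and 19.5% lower among all genes tested. TAPBP, the chaperone that links MHC class I to the peptide transporter, measured 49.7 and 73.4 TPM in control cells, against 194 and 253 TPM after depletion (log2 fold change 1.86 ± 0.39, limma adjusted p = 4.26e-05). HLA-C, a class I heavy chain whose reads can be shared with its paralogs, measured 52.2 and 58.5 TPM in control cells, against 166 and 191 TPM after depletion (log2 fold change 1.67 ± 0.40, limma adjusted p = 0.000338). B2M, the class I light chain, measured 2912 and 4160 TPM in control cells, against 7962 and 10255 TPM after depletion (log2 fold change 1.38 ± 0.33, limma adjusted p = 0.00043). For these 3 genes both depleted libraries lay above both controls, against 26.8% of all genes tested. IRF1, a transcription factor known to induce immunoproteasome genes, fell from 64.5 and 48.9 TPM in the controls to 19.5 and 17.6 TPM after depletion (log2 fold change -1.55 ± 0.43, limma adjusted p = 0.0028). All 4 calls ended without control replicate 1, with limma adjusted p-values of 0.0835, 0.0838, 0.154 and 0.19, in a fit where 0.318% of all genes tested were called higher and 2.99% lower.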

How the data were processed

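Ribosome-protected fragments of 4 PANC-1 libraries were deposited as TPM, per the file headers, and the columns hold no other unit. Per the submitters' processing notes, the tools were fastp, Bowtie2 2.2.8, STAR, RSEM and DESeq2 with the build GRCh38; their order, the annotation release, the counted region, the strand setting and the length definition were given by none of these sources. Columns named KO were read as FBXO32-depleted and NS as negative control, from the names alone. Symbols came from a gene name table (19702 of 20307 identifiers), and positions and the longest coding length from GENCODE 29 on GRCh38. TPM keeps no depth, so a depth per sample cannot be given.

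Genes that reached 1 TPM in 2 or more libraries entered a limma 3.58.1 fit (R 4.3.3) of log2(TPM + 1) (trend and robust moderation, no covariates, threshold 0.05). With 2 residual degrees of freedom, 10272 of 11623 genes took the pooled spread alone, so most p-values reflect the spread of all genes, and nothing says that the bioreplicates were separate cultures. Fold changes are on that scale and understate those of low genes. The fit was also run on simulated data whose means and spread were taken from these data. The length trend was a loess of each library's deviation on log10 coding length. The members and lists were chosen with earlier results of these data known. Genes named were all called members, the catalytic subunits, activators and inhibitor, the highest and lowest of each subcomplex in the controls, and up to 5 called genes of each further list. Some genes of the further lists are not reported here and were left out of their counts.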

Additional observations from a re-analysis of the deposited data

How the results depend on the processing

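The count of proteasome genes that fell, all of them 19S subunits, was 5 as reported. It was 1 without the filter on low values (8.77% of all genes tested then fell), 1 under median-ratio scaling and at an adjusted p under 0.01, 3 without the variance trend (19.8%), 2 with the coding-length trend removed and 9 at an adjusted p under 0.1. With the replicate number as a block it was 2 (16.6%). The labels do not say that a number marks a shared batch, and the deviations of same-numbered libraries correlated at -0.05 across genes, so the numbers are not taken to pair the libraries. Leaving out each library gave counts from 0 (without negative control replicate 1) to 10 (without depleted replicate 1), and 1 without negative control replicate 2 (13.0%) or depleted replicate 2 (11.4%). A group left with 1 library is assumed to vary like the other. The count that rose was 0 as reported, 2 under median-ratio scaling and at an adjusted p under 0.1, 1 with the coding-length trend removed, and from 0 to 1 when each library was left out. For the immunoproteasome and PA28 genes it was 1 under median-ratio scaling and at an adjusted p under 0.1. The 20S core had 0 calls under every alternative. The difference of 20S to 19S medians moved from 1.15 to 0.80 with the coding-length trend removed, and ranged from 0.89 to 1.42 when each library was left out. A pseudocount of 0.1, a filter of 5 TPM, fitting with no robust moderation and removing the 20 most abundant and the mitochondrial genes left the counts close to those reported. The cause of these shifts was not tested. TPM carries no depth, so it cannot be said which low genes, such as PSMB8, rest on few reads.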
